A study of Mus musculus with 9 samples.

Results

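The core transcription factors of haematopoietic stem cells (HSCs) were taken as the 10 genes Tal1, Lyl1, Lmo2, Gata2, Runx1, Erg, Meis1, Hlf, Mecom and Gfi1b, found by symbol among the 21939 genes of the count matrix. All 10 were present, and all 10 passed the filter on low counts, which left 15127 genes. The samples were bulk RNA-seq libraries of long-term HSCs (LT-HSCs) from C57BL/6 mouse bone marrow, sorted as Lin- Sca1+ cKit+ CD34- Flt3- cells. The aged+Ri group came from mice over 80 weeks old, and Rhosin, a small molecule that inhibits the GTPase RhoA, was present at 100 µM. The aged group came from mice of the same age without Rhosin, and the young group from mice 10 to 16 weeks old without Rhosin. Each group had 3 libraries, called by their group and replicate number below, and cells of all groups spent 16 h in a salt solution with 10% serum at 3% oxygen before lysis. Libraries of a group are biological replicates per the labels, which leave the number of mice behind each unsaid. The p-values therefore measure only the spread between these samples. In such bulk samples, fewer cells of a type and less RNA per cell cannot be told apart.

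These proteins bind DNA, or sit on proteins that do, at enhancers and promoters of genes used by blood stem cells. Tal1 and its close relative Lyl1 are basic helix-loop-helix proteins that pair with E proteins and are joined through Lmo2 and Ldb1 to a GATA factor, in stem cells mainly Gata2. Runx1 with its partner Cbfb, and Erg and Fli1 of the ETS family, occupy many of the same elements in mouse blood progenitors. Meis1 works with Hox proteins, Hlf is a leucine zipper factor that marks stem cells, Mecom encodes the zinc finger protein Evi1 and its longer forms, and Gfi1b is a zinc finger repressor that recruits the demethylase Kdm1a. Most of these genes are needed to form or keep HSCs in the mouse.

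In brief, 9 of the 10 genes had lower fitted levels in aged+Ri than in aged cells, against 52.8% of all genes, with a log2 fold change of -1.29 for Tal1 at the far end. Gfi1b was the only one of the 10 whose 3 aged libraries all lay above all 3 young libraries. This pattern was shown by 8.58% of all genes, so 1 of 10 is near the share over all genes. None of these differences passed the adjusted threshold of 0.05 in the fit of all 9 libraries. Levels are given as CPM (counts scaled to library size) after TMM (trimmed mean of M-values) normalisation, and differences as log2 fold changes ± standard error from edgeR's quasi-likelihood model. Adjusted p-values are Benjamini-Hochberg values over all 15127 genes tested.

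Library totals lay between 34358101 and 72503142 counts, so that 3 counts in a library were worth 0.041 to 0.0855 CPM and each of the 10 genes had at least 430 counts in every library. All 17 markers of LT-HSCs on the list used here had counts in all 9 libraries. Their summed level was 1320 to 2030 CPM in aged+Ri, 1890 to 2300 CPM in aged and 1710 to 2720 CPM in young libraries. A list of 14 markers that an LT-HSC sort selects against summed to 25.9 to 90.8, 182 to 664 and 253 to 652 CPM in these groups. All 12 that could be tested were below 0 for aged+Ri against aged (median -3.26), against 52.8% of all genes (median -0.06). With edgeR, 0 of them passed the adjusted threshold there, and their part in the values of the 10 genes was not tested. Summed levels of 18 myeloid markers were 87.8 to 141 CPM in aged+Ri and 1170 to 3980 CPM in young libraries. Aged 1, 2 and 3 had 678, 496 and 10800 CPM, so the high aged value came from aged 3 alone, where Elane gave 4240 CPM. The part of that library's myeloid markers in its values of the 10 genes was not tested. Ddx3y, a Y-linked gene, had 2577 and 6400 counts in young 2 and young 3 and no more than 1 count in any further library. The part of this imbalance in the comparisons with young libraries, Gfi1b included, was not tested. The labels give the sequencing batch: aged+Ri 1 and aged 1 were in batch 1, aged+Ri 2, aged+Ri 3, aged 2 and young 2 in batch 2, aged 3 and young 3 in batch 3, and young 1 in both 1 and 3.

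Between genes, levels can be compared only per length, here as CPM per kb of annotated exon averaged over the 9 libraries. On this scale Lmo2 stood first at 273 CPM per kb and Hlf second at 89.5. Gfi1b at 45.2, Lyl1 at 41.2, Tal1 at 39.4, Gata2 at 23.4 and Meis1 at 19 CPM per kb followed. Runx1 and Erg, both at 12.6, and Mecom at 8.27 CPM per kb came last. In aged+Ri libraries Lmo2 averaged 148 ± 67.4 CPM per kb and Hlf 59.9 ± 28.1 (SD, n = 3), which is within their summed SDs. In aged libraries, with 338 ± 69.3 for Lmo2 and 87.9 ± 19 for Hlf, and in young libraries, with 334 ± 144 and 121 ± 51.4 for the same genes, they were further apart than their summed SDs. Among the further neighbours in this order, Hlf at 121 ± 51.4 and Gfi1b at 23.4 ± 12.6 CPM per kb in young libraries, and Meis1 at 21.5 ± 3.79 and Runx1 at 14.8 ± 2.49 CPM per kb in aged libraries, were set apart by more than their summed SDs. The rest were within them. By mean CPM, Lmo2 and Hlf exceeded 98.4% of the tested genes, and the lowest of the 10, Erg, exceeded 73.9%.

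**Figure D1:**
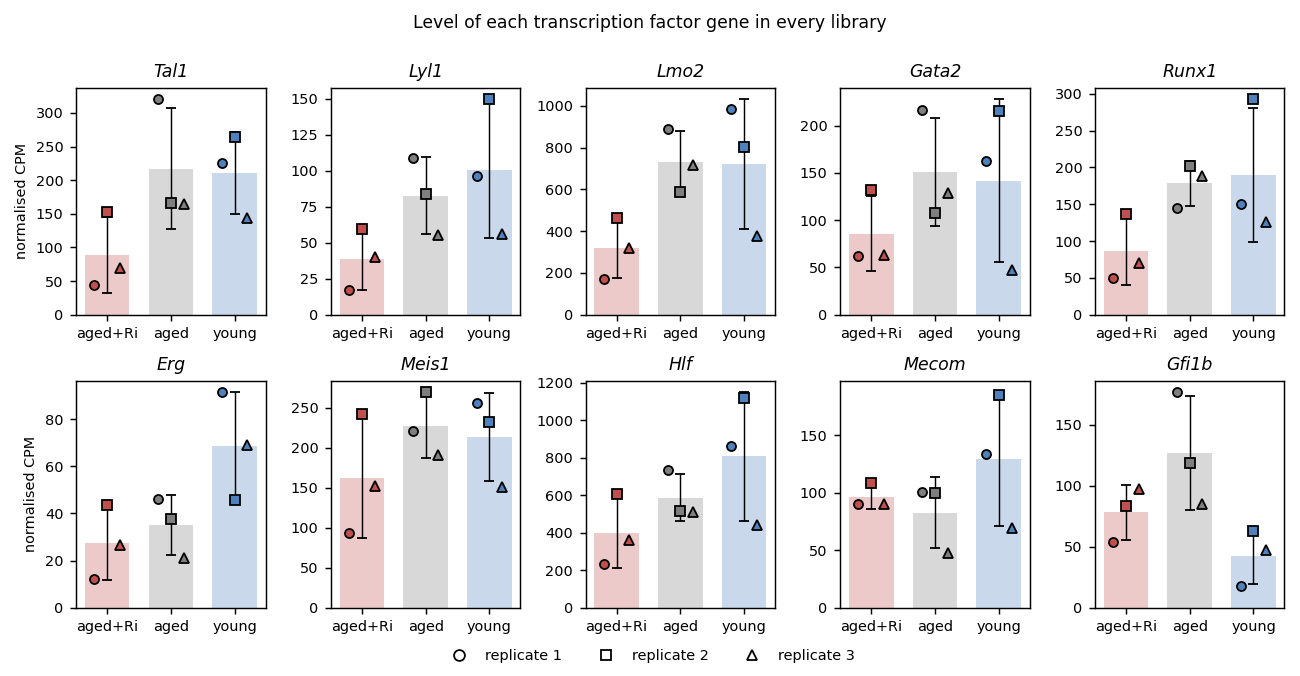
Normalised CPM of the 10 genes (vertical axes, linear from 0) in aged+Ri, aged and young libraries; points are libraries, bars are means and whiskers are SDs (n = 3). Aged+Ri 1 is the lowest library of its group in every panel, and in the Gfi1b panel the aged libraries (84.7 to 177 CPM) lie above the young ones (17.7 to 62.9 CPM).

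The Tal1 complex was examined first. Tal1 (chromosome 4, 115056426 to 115071755, plus strand, GRCm38) had 44.5, 152 and 70.2 CPM in aged+Ri 1, 2 and 3, against 321, 166 and 165 CPM in aged 1, 2 and 3, and young 1, 2 and 3 had 225, 264 and 144 CPM. The aged+Ri libraries all lay below the aged ones, while the aged and young ranges overlapped. The log2 fold change was -1.29 ± 0.46 for aged+Ri against aged (95% interval -2.27 to -0.3, unadjusted p = 0.0143, edgeR adjusted p = 0.434). For aged against young it was 0.04 ± 0.45, with an interval of -0.93 to 1.01.

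Lyl1 (chromosome 8, 84701457 to 84704715, plus strand), which can partly stand in for Tal1 in adult mouse stem cells, had 16.9, 59.7 and 39.9 CPM in aged+Ri 1, 2 and 3. The values were 109, 83.8 and 55.4 CPM in aged libraries and 96.7, 150 and 55.9 CPM in young libraries. One aged+Ri library, replicate 2, lay above the lowest aged library, so these groups overlapped. The change was -1.09 ± 0.5 for aged+Ri against aged (unadjusted p = 0.0489, edgeR adjusted p = 0.544), and -0.29 ± 0.5 for aged against young.

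Lmo2 (chromosome 2, 103957986 to 103981878, plus strand), the LIM-domain bridge that does not itself bind DNA, had 173, 465 and 322 CPM in aged+Ri libraries. Aged libraries had 888, 589 and 718 CPM and young libraries 985, 804 and 379 CPM. All aged+Ri values lay below all aged values, and young 3 lay between the aged+Ri values. The log2 fold change of -1.19 ± 0.4 for aged+Ri against aged (95% interval -2.06 to -0.33) had the smallest p of the 10 genes in that comparison, 0.0106 unadjusted and 0.419 after edgeR's adjustment. Aged against young gave 0.02 ± 0.4, with an interval of -0.84 to 0.87.

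Gata2 (chromosome 6, 88193891 to 88207032, plus strand), the zinc finger factor of the complex, had 62.1, 132 and 63.2 CPM in aged+Ri libraries. It had 216, 107 and 129 CPM in aged and 163, 216 and 46.9 CPM in young libraries. Its pooled within-group SD was 0.82 log2 units, the widest of the 10 genes, against a median of 0.69 over 9750 genes of at least 5 CPM. All 3 pairs of groups overlapped. Its log2 fold change was -0.81 ± 0.51 for aged+Ri against aged (interval -1.92 to 0.29, edgeR adjusted p = 0.685) and 0.09 ± 0.51 for aged against young.

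The RefSeq promoter windows of Tal1 and Lyl1, 250 bases before to 50 after the annotated start, are shown because both genes had low values in the same aged+Ri libraries. They lie at chr4:115056176-115056475, the first of 2 Tal1 windows, and chr8:84701207-84701506 on the plus strand of GRCm38.p6. Capitals mark motif matches.
Tal1: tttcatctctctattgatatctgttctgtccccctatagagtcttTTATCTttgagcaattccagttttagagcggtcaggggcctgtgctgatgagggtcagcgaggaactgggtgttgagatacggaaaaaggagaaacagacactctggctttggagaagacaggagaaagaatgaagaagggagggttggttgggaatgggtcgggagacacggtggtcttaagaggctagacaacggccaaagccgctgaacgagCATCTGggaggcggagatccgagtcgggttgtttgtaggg
Lyl1: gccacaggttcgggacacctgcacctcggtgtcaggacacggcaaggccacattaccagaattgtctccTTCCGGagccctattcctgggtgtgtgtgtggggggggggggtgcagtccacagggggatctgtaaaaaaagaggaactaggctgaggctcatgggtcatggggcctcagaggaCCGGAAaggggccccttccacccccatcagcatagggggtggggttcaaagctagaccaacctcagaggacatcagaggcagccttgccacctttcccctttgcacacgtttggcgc
The first Tal1 window held TTATCT, the reverse complement of the GATA motif AGATAA, at -205 and CATCTG, the reverse complement of the E-box CAGATG, at 10. The second Tal1 window held none of the motifs searched. The Lyl1 window held the ETS motif CCGGAA, once on each strand, at -181 and -67. Positions count from 0 at the annotated start. The downstream end of the first Tal1 window matched no annotated Tal1 transcript. Those of the second Tal1 window and of the Lyl1 window matched transcripts of their genes. With both strands searched, AGATAA occurred in 11.2%, CAGATG in 17.2% and CCGGAA in 14.9% of 32851 windows of this length. Such a match describes letters and is not a measured binding site.

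Within each library, the log2 ratio of Lyl1 to Tal1 counts was -1.4, -1.35 and -0.82 in aged+Ri, -1.56, -0.99 and -1.57 in aged, and -1.22, -0.81 and -1.37 in young libraries. Group means were within 0.24 of each other and the ranges overlapped. The difference was 0.18 for aged+Ri against aged and -0.24 for aged against young (two-sided exact permutation p = 0.5 for each, adjusted p = 0.643 over 9 ratio tests). With 3 libraries against 3, the smallest p such a test can give is 0.1.

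Runx1 and Erg represent the Runt and ETS families among the 10 genes. Runx1 (chromosome 16, 92601466 to 92826149, minus strand) had 50.3, 137 and 70.6 CPM in aged+Ri libraries, 145, 202 and 188 CPM in aged libraries, and 151, 293 and 126 CPM in young libraries. Every aged+Ri value was below every aged value, although aged+Ri 2 was close to aged 1. The log2 fold change was -1.05 ± 0.42 for aged+Ri against aged (unadjusted p = 0.027, edgeR adjusted p = 0.477) and -0.09 ± 0.42 for aged against young (interval -0.99 to 0.81).

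Runx1 is known to be transcribed from a distal and a proximal promoter, and the distal one is the main one in adult blood stem cells. The first of its 2 windows, the distal one, lies at chr16:92826025-92826324 on the minus strand of GRCm38.p6, and capitals mark the ETS motif AGGAAG and the reverse complement of the RUNX motif TGTGGT.
Runx1: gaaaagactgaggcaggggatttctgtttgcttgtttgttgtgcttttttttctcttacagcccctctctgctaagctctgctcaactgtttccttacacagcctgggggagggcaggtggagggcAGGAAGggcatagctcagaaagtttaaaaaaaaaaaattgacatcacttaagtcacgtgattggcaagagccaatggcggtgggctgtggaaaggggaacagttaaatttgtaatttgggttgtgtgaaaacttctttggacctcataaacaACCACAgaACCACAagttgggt
The AGGAAG match was at -124. ACCACA, the RUNX motif on the other strand, occurred at 28 and 36, just inside the transcript. TGTGGT was found in 16.8% and AGGAAG in 35.4% of all windows, and counts per gene do not separate transcripts of the 2 promoters.

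Erg (chromosome 16, 95359169 to 95586593, minus strand) had 12.1, 43.4 and 26.7 CPM in aged+Ri libraries, 46.1, 37.7 and 21 CPM in aged libraries and 91.5, 45.7 and 68.9 CPM in young libraries. Aged+Ri and aged values were intermixed, and young libraries were the highest with the exception of young 2, which lay just under aged 1. Against young, the log2 fold change was -1.33 ± 0.53 in aged+Ri cells (unadjusted p = 0.0264, edgeR adjusted p = 0.162, ranges not overlapping). In aged cells against young it was -0.98 ± 0.53 (unadjusted p = 0.0866). It was -0.35 ± 0.52 for aged+Ri against aged, with an interval of -1.48 to 0.78.

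Meis1, Hlf and Mecom are stem cell regulators outside the Tal1 complex. Meis1 (chromosome 11, 18879817 to 19018985, minus strand) had 93.2, 241 and 152 CPM in aged+Ri, 220, 270 and 191 CPM in aged and 255, 232 and 151 CPM in young libraries. Its within-group SD of 0.48 log2 units was the smallest of the 10. The change was -0.48 ± 0.37 for aged+Ri against aged and 0.09 ± 0.37 for aged against young, with all groups overlapping.

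Hlf (chromosome 11, 90336536 to 90390895, minus strand) had 235, 604 and 363 CPM in aged+Ri, 734, 517 and 511 CPM in aged and 863, 1120 and 439 CPM in young libraries. The group mean was lowest in aged+Ri and highest in young libraries, but each pair of groups overlapped. Its log2 fold change was -0.55 ± 0.39 for aged+Ri against aged, -0.46 ± 0.39 for aged against young and -1.01 ± 0.39 for aged+Ri against young. The last had an unadjusted p of 0.0228 and an edgeR adjusted p of 0.154.

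Mecom (chromosome 3, 29951296 to 30548008, minus strand) was the 1 gene of the 10 with a fitted log2 fold change above 0 for aged+Ri against aged, at 0.22 ± 0.41 (interval -0.67 to 1.1). Aged+Ri libraries had 89.9, 108 and 90.2 CPM, the tightest group of any of the 10 genes, while aged libraries had 101, 100 and 47.3 CPM and young libraries 134, 186 and 69.3 CPM. The positive sign rested on aged 3, and without that library the change was -0.11. For aged against young the change was -0.65 ± 0.41 (unadjusted p = 0.14), with overlapping groups.

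Gfi1b (chromosome 2, 28609450 to 28621982, minus strand) had 53.8, 83.5 and 97.8 CPM in aged+Ri libraries, 177, 119 and 84.7 CPM in aged libraries and 17.7, 62.9 and 47.5 CPM in young libraries. The lowest aged library lay above the highest young library, and aged+Ri libraries lay between, overlapping both. The log2 fold change for aged against young was 1.57 ± 0.48, or 2.97-fold (95% interval 0.54 to 2.6 on the log2 scale), with an unadjusted p of 0.00577 and an edgeR adjusted p of 0.201. Aged+Ri against aged gave -0.7 ± 0.47 (interval -1.71 to 0.32), and aged+Ri against young 0.87 ± 0.47 (unadjusted p = 0.0855). In the 2 batches that held 1 aged and 1 young library, aged exceeded young by 0.92 in batch 2 and by 0.83 in batch 3. Keeping 1 sign in both batches was not particular to Gfi1b. Meis1 (0.21 and 0.34), Erg (-0.28 and -1.71), Mecom (-0.89 and -0.55) and Lyl1 (-0.84 and -0.01) did so as well. Other genes of the 10 changed sign, among them Gata2 at -1.01 and 1.46, Lmo2 at -0.45 and 0.92 and Hlf at -1.11 and 0.22. Each of these values is from 1 library against 1.

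The size of the Gfi1b difference depended on the young library with the lowest value and on whether the batch was fitted. With the batch as a covariate the change for aged+Ri against young went from 0.87 to 0.2. For aged against young it was 1.09 in that fit, the lowest of the alternatives, with an edgeR adjusted p of 0.37. Without young 1 the change for aged against young was 1.13, with an edgeR adjusted p of 0.324. When young 1, the young library without Ddx3y transcripts, was the only young library, an alternative chosen after seeing the data, the change was 2.9 and the edgeR adjusted p 0.0175. That fit assumes that a lone young library varies like the other groups.

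The Gfi1b promoter window, shown because Gfi1b had the smallest p of the 10 genes for aged against young, lies at chr2:28621933-28622232 on the minus strand of GRCm38.p6. Capitals mark the GATA motif TGATAA and the GFI1 core motif AAATCA.
Gfi1b: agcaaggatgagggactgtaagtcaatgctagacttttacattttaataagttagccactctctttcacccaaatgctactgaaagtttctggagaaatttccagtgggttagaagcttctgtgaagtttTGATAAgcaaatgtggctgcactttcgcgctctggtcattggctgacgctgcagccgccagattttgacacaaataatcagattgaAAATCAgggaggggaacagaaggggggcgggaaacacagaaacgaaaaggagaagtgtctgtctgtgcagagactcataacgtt
TGATAA lay at -120 and AAATCA at -34. They occurred in 9.05% and 14% of all windows, and among the 15 windows found for 9 of the genes each of them occurred in 2, the other being the first Mecom window. Lmo2 had no entry.

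Taking the 10 genes as a list, 0 passed the adjusted threshold for aged+Ri against aged, where 0% of all genes did with edgeR. In that comparison 0 of the 10 also passed with DESeq2, against 2.36% of all genes given an adjusted p. With limma-voom 0 passed, against 0.364% of all genes. At an unadjusted p under 0.05, 4 of the 10 were lower in aged+Ri (Lmo2, Tal1, Runx1 and Lyl1), a call that 4.89% of all genes had, and 0 were higher, against 4.24%. Groups did not overlap, with aged+Ri below, for 3 of the 10 (Lmo2, Tal1 and Runx1), against 8.66% of all genes, and with aged+Ri above for 0, against 7.87%. Fitted changes were below 0 for 9 of the 10, against 52.8% of all genes, and their median was -0.75, against -0.06 over all genes. Without aged+Ri 1, 8 of the 10 were below 0, against 54.5% of all genes, their median was -0.56, against -0.09, and 1 gene (Lmo2) was lower at an unadjusted p under 0.05, against 3.2% of all genes.

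For aged against young, 0 of the 10 passed the adjusted threshold, against 0.0331% of all genes with edgeR. With DESeq2 0 passed, against 5.35% of all genes given an adjusted p, and with limma-voom 0, against 0.119%. At an unadjusted p under 0.05, 1 of the 10 was higher, Gfi1b, against 6.09% of all genes, and none was lower, against 10.1%. Gfi1b was also the 1 gene whose groups did not overlap with aged above, which held for 8.58% of all genes, and aged lay wholly below young for 0, against 16.1%. Changes were below 0 for 5 of the 10, against 54.7% of all genes, with a median of -0.04, against -0.13 over all genes.

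In aged+Ri cells against young ones, 0 of the 10 passed the adjusted threshold, against 1.45% of all genes with edgeR (0.959% higher and 0.489% lower). With DESeq2 0 passed, against 12.6% of all genes given an adjusted p, and with limma-voom 0, against 4.26%. At an unadjusted p under 0.05, 6 were lower (Lmo2, Tal1, Lyl1, Runx1, Hlf and Erg), against 14.4% of all genes, and 0 were higher, against 9.06%. Groups did not overlap, with aged+Ri below, for Erg alone, 1 of the 10, against 19.9% of all genes, and with aged+Ri above for 0, against 12.4%. Changes were below 0 for 9 of the 10, against 57.4% of all genes, with a median of -1.08, against -0.24 over all genes. Without young 3, Lmo2 passed with an edgeR adjusted p of 0.0493. With young 1 as the only young library, Gfi1b passed with an edgeR adjusted p of 0.0376. This comparison and the one with aged cells use the same aged+Ri libraries, so their values are not separate evidence.

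**Figure D2:**
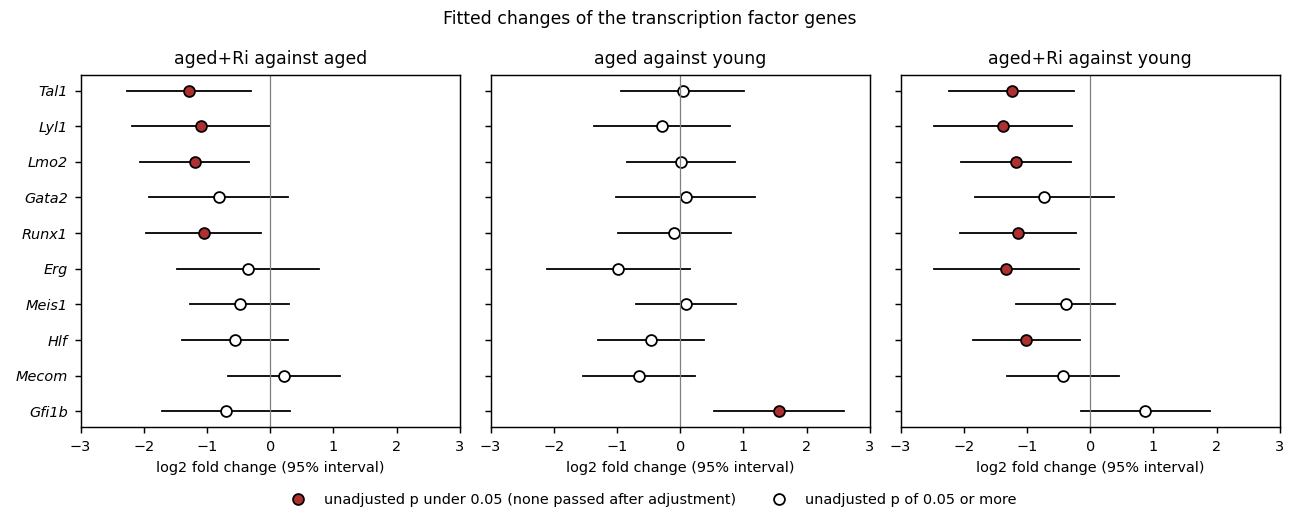
Fitted log2 fold changes (points) with 95% intervals (lines) of the 10 genes for aged+Ri against aged, aged against young and aged+Ri against young; filled points have an unadjusted p under 0.05. Points lie left of 0 for 9 of the 10 genes in the outer panels, and in the middle panel only Gfi1b has an interval clear of 0.

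The replicate libraries of a group did not scatter independently from gene to gene. Aged+Ri 1 was the lowest of its group for all 10 genes, which held for 38.8% of all genes, and aged+Ri 2 the highest for 9 of the 10, against 34.5% of all genes. For 9 of the 10 both held, against 20.2% of all genes. The 10 genes together made up 0.0784%, 0.211% and 0.119% of counts in aged+Ri 1, 2 and 3, against 0.299%, 0.211% and 0.233% in aged 1, 2 and 3. In young 1, 2 and 3 the share was 0.275%, 0.368% and 0.156%. Aged+Ri 2 thus had the same share as aged 2, the aged library of its own sequencing batch. Young 3 was the lowest young library for 8 of the 10, against 31.4% of all genes, while young 2 was the highest for 7 (27.8%) and young 1 for 3 (33.5%). Aged 1 was the highest aged library for 8 of the 10, against 31.5% of all genes, aged 2 for the other 2 (35.4%), and aged 3 was the lowest for 7 (33.4%).

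Sequencing batch and difference were examined together. In batch 1, aged+Ri 1 was below aged 1 for every one of the 10 genes, by -0.16 for Mecom to -2.85 for Tal1 on the log2 scale. In batch 2, aged+Ri 2 and 3 averaged below aged 2 for all 10 as well, from -0.02 for Mecom to -1.04 for Runx1. By itself aged+Ri 2 lay above aged 2 for Gata2 (132 against 107 CPM) and Erg (43.4 against 37.7 CPM). The same held for Hlf (604 against 517 CPM) and Mecom (108 against 100 CPM), while aged+Ri 2 was lower for the other genes. Lmo2 was lower by -2.36 in batch 1 and -0.61 in batch 2, and Tal1 by -2.85 and -0.68. Runx1, at -1.52 and -1.04, varied least between batches among the genes with an unadjusted p under 0.05. The library total of aged+Ri 1, 37712059 counts, was near that of aged+Ri 3, 38447858. With the batch as a covariate the median change of the 10 genes was -1.12, against -0.03 over all genes. In that fit 8 of the 10 were lower at an unadjusted p under 0.05, against 4.63% of all genes, and 0 passed the edgeR adjusted threshold, against 0.106%.

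**Figure D3:**
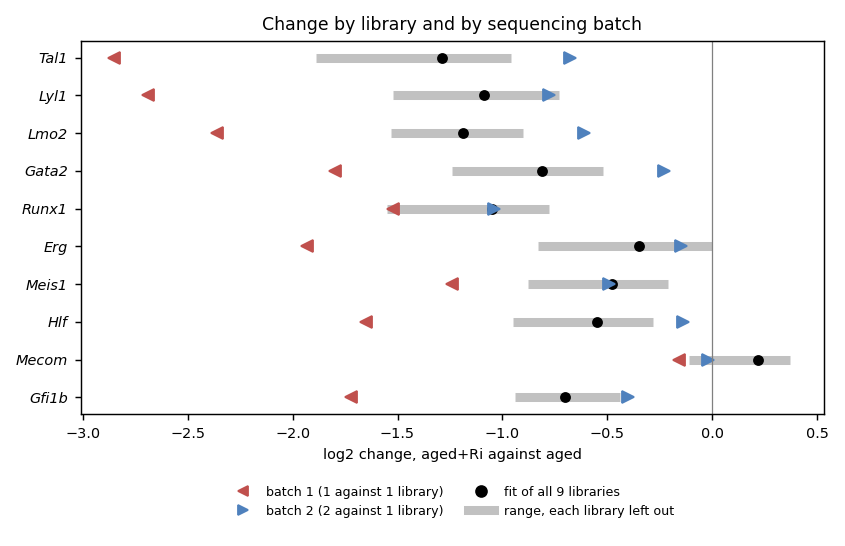
Log2 change of each gene for aged+Ri against aged (horizontal axis) within batch 1 and batch 2 (triangles), in the fit of all 9 libraries (points) and over the fits with 1 library left out (grey bars). Batch 1 lies further below 0 than batch 2 for all 10 genes, as with Tal1 at -2.85 and -0.68.

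Among 29 listed partners and co-regulators, 0 passed the adjusted threshold with edgeR in any comparison. For aged+Ri against aged, 22 were below 0 with a list median of -0.19, against 52.8% and -0.06 over all genes. At an unadjusted p under 0.05, 3 were lower and 1 higher, against 4.89% and 4.24% of all genes. Zfpm1, the GATA cofactor FOG1, had 3.85, 13.6 and 8.58 CPM in aged+Ri against 42.4, 19.3 and 26.1 CPM in aged libraries, a log2 fold change of -1.75 ± 0.63 (edgeR adjusted p = 0.434). Cbfa2t3, the ETO2 corepressor of the Tal1 complex, had 42.3, 127 and 76 CPM in aged+Ri against 215, 122 and 169 CPM in aged libraries, a change of -1.04 ± 0.42 (edgeR adjusted p = 0.484). Id1, which sequesters E proteins, was the higher one, with 11.5, 6.93 and 5.31 CPM in aged+Ri and at most 0.687 CPM in aged libraries (edgeR adjusted p = 0.466).

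Further partners are given for their roles in the complexes. Kdm1a, the demethylase recruited by Gfi1b, changed by -0.04 ± 0.31, Cbfb, the partner of Runx1, by 0.23 ± 0.32, and the Tal1 complex scaffold Ldb1 by -0.27 ± 0.51 for aged+Ri against aged. The E protein gene Tcf3 changed by -0.71 ± 0.63, the corepressor genes Hdac1 and Rcor1 by -0.78 ± 0.5 and -0.52 ± 0.5, and Ssbp3, which binds Ldb1, by -0.77 ± 0.56. For aged against young Cbfb had -0.83 ± 0.33 (unadjusted p = 0.0237, edgeR adjusted p = 0.252), with 68.8, 103 and 61.5 CPM in aged and 164, 120 and 131 CPM in young libraries, which did not overlap.

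Of 18 paralogues, 14 could be tested, and 0, 0 and 1 passed the adjusted threshold with edgeR for aged+Ri against aged, aged against young and aged+Ri against young. Of all genes 0%, 0.0331% and 1.45% did. For aged+Ri against aged, 12 of the 14 were below 0 with a median of -0.79, against 52.8% and -0.06 over all genes. At an unadjusted p under 0.05, 2 were lower and 0 higher, against 4.89% and 4.24% of all genes. Fli1, the ETS relative of Erg, had 28.4, 87.1 and 68.6 CPM in aged+Ri against 115, 157 and 103 CPM in aged libraries (log2 fold change -1.03 ± 0.43, edgeR adjusted p = 0.492). Runx2, the relative of Runx1 best known from bone, was the 1 that passed. It fell to 23, 20.9 and 26.2 CPM in aged+Ri against 91, 92.8 and 85.7 CPM in young libraries (log2 fold change -1.94 ± 0.37, edgeR adjusted p = 0.0257). Aged libraries lay between them at 38.6, 40.9 and 37.9 CPM, a change of -1.2 ± 0.36 against young (edgeR adjusted p = 0.199). The Runx2 call was made in 12 of 19 alternative fits and was not made with the batch as a covariate, with only the 2 groups compared, or without aged+Ri 1, 2 or 3, aged 1 or young 2, with adjusted p-values up to 0.127.

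Gata1 and Gfi1 are the relatives of Gata2 and Gfi1b. Gata1, the GATA factor of red cells and megakaryocytes, was at 0.0561, 5.01 and 0.0847 CPM in aged+Ri, 0.519, 15.6 and 9.22 CPM in aged and 23.4, 16.1 and 18.3 CPM in young libraries. Its aged and its aged+Ri libraries all lay below the young ones (log2 fold change of aged+Ri against young -3.48 ± 1.54, edgeR adjusted p = 0.196). The log2 ratio of Gata2 to Gata1 counts averaged 7.79 ± 2.67 in aged+Ri, 5.08 ± 3.14 in aged and 2.63 ± 1.2 in young libraries (SD, n = 3 each). Only the aged+Ri and young ratios did not overlap (two-sided exact permutation p = 0.1, the smallest possible, adjusted p = 0.3). Gata1 had 2 and 3 counts in aged+Ri 1 and 3, so their ratios of 9.53 and 9.13 depend on the count of 1 added to each gene.

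Gfi1, the relative of Gfi1b that restrains stem cell division in mice, had 5.95, 1.8 and 1.33 CPM in aged+Ri, 13, 2.31 and 14.2 CPM in aged and 10.2, 27.6 and 48.4 CPM in young libraries. The log2 ratio of Gfi1b to Gfi1 counts was 3.17, 5.52 and 6.17 in aged+Ri, 3.77, 5.67 and 2.58 in aged and 0.8, 1.19 and -0.03 in young libraries. All 6 libraries of aged mice lay above the 3 young ones. Aged exceeded young by 3.35 and aged+Ri exceeded young by 4.3 (two-sided exact permutation p = 0.1 each, the smallest possible, adjusted p = 0.3 over 9 tests). When libraries were left out in turn, the difference of aged against young stayed between 2.52 and 4.07. The level of Gfi1 by itself had an unadjusted p of 0.109 for aged against young, and the ratio partly restates the Gfi1b values that drew attention to it.

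**Figure D4:**
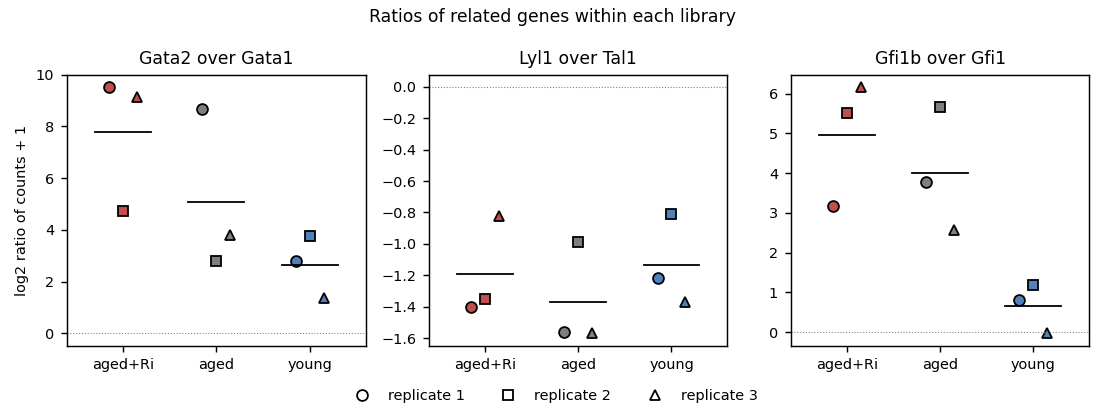
Log2 ratio of counts (plus 1) of Gata2 over Gata1, Lyl1 over Tal1 and Gfi1b over Gfi1 in every library; lines are group means. For Gfi1b over Gfi1 the 3 young libraries (-0.03 to 1.19) lie below the 3 aged (2.58 to 5.67) and the 3 aged+Ri libraries (3.17 to 6.17).

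Among 38 other stem cell transcription factors, 31 were below 0 for aged+Ri against aged, against 52.8% of all genes. The list median was -0.57, against -0.06 over all genes. At an unadjusted p under 0.05, 5 were lower and 2 higher, against 4.89% and 4.24% of all genes. With edgeR, 0 of the 38 passed the adjusted threshold in that comparison or for aged against young. For aged+Ri against young 3 passed as lower, against 0.489% of all genes. These were Myb, which drives progenitor proliferation, the lymphoid regulator Ikzf1 and the repressor Bcl6. Myb had 22.8, 80.3 and 66.6 CPM in aged+Ri, 237, 348 and 298 CPM in aged and 526, 346 and 600 CPM in young libraries. All aged+Ri libraries lay below all others, and Myb fell by 3.12 ± 0.44 against young (edgeR adjusted p = 0.0116). The Myb call was made in all 19 alternative fits. Against aged its change was -2.38 ± 0.43 (edgeR adjusted p = 0.127), with no overlap.

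Ikzf1 had 26.8, 41.6 and 46.1 CPM in aged+Ri and 151, 92.6 and 158 CPM in young libraries, a fall of 1.81 ± 0.39 on the log2 scale (edgeR adjusted p = 0.0418). Bcl6 had 12.7, 10.2 and 18.6 CPM in aged+Ri and 61.2, 64.8 and 54.4 CPM in young libraries, and it fell by 2.12 ± 0.48 (edgeR adjusted p = 0.047). Aged libraries, at 19.5, 16 and 12.6 CPM, overlapped the aged+Ri ones for Bcl6. Ikzf1 passed in 9 and Bcl6 in 6 of 19 alternative fits, and both missed the threshold without aged+Ri 1, 2 or 3, aged 1, 2 or 3, or young 1, with the batch as a covariate, and with only the 2 groups compared. Bcl6 was also lost without young 2, without the filter on low counts and when young 1 stood alone for its group. Adjusted p-values reached 0.18 for both genes. Spi1, which encodes PU.1 and is a known partner and antagonist of GATA factors, was higher in aged+Ri with 212, 172 and 173 CPM against 93.2, 85.4 and 133 CPM in aged libraries (log2 fold change 0.84 ± 0.37, edgeR adjusted p = 0.516). Etv6, an ETS repressor needed by adult HSCs, changed by -1.54 ± 0.39 against aged (edgeR adjusted p = 0.296), and Klf2 by 3.85 ± 1.04 (edgeR adjusted p = 0.335).

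Reported target genes of the 10 factors were followed through a list of 40, of which 36 could be tested. With edgeR, 0 passed the adjusted threshold in any comparison. In aged+Ri against aged 29 were below 0 with a median of -1, against 52.8% and -0.06 over all genes. At an unadjusted p under 0.05, 10 were lower and 2 higher, against 4.89% and 4.24% of all genes. Kit, the stem cell factor receptor, had 87.3, 325 and 166 CPM in aged+Ri against 448, 407 and 429 CPM in aged libraries (log2 fold change -1.15 ± 0.45, edgeR adjusted p = 0.465). Its aged+Ri and aged libraries did not overlap. This list also holds myeloid and lymphoid genes, such as Cebpe, at 0 in all aged+Ri libraries and at most 8.17 CPM in aged ones.

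LT-HSC marker genes did not follow 1 direction. For aged+Ri against aged, 14 of 17 were below 0 (median -0.55), against 52.8% of all genes (median -0.06), whereas Procr, the EPCR receptor used to isolate HSCs, was higher, with 409, 181 and 217 CPM in aged+Ri against 145, 80.9 and 76.4 CPM in aged libraries (log2 fold change 1.42 ± 0.41, edgeR adjusted p = 0.367). Against young, at 63.8, 96.2 and 48 CPM, Procr rose by 1.96 ± 0.42 (edgeR adjusted p = 0.0394), the 1 marker of the list to pass. That call was made in 10 of 19 alternative fits, and not with the batch as a covariate, with only the 2 groups compared, or without aged+Ri 1 or 3, aged 1, 2 or 3, or young 1 or 3, with adjusted p-values up to 0.171. The low values of Tal1, Lmo2 and Runx1 in aged+Ri libraries therefore stood beside low Kit and high Procr.

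Markers of other cells moved with the same comparison, and their part in the values of the 10 genes was not tested. For aged+Ri against aged, all 18 myeloid markers were below 0 (11 at an unadjusted p under 0.05, none after edgeR's adjustment), as were all 18 tested lymphoid markers (7 at an unadjusted p under 0.05). Over all genes 52.8% were below 0, and 4.89% were lower at an unadjusted p under 0.05. Lymphoid marker sums were 81.5 to 188 CPM in aged+Ri, 130 to 985 CPM in aged and 305 to 13700 CPM in young libraries. In young 1, which had the 13700 CPM, the immunoglobulin gene Iglc2 alone gave 13400 CPM. Young 2 and 3 summed to 305 and 2650 CPM. Cebpe was at 0 in all 3 aged+Ri libraries, Mpo and Ms4a3 in 2 of them. Against young, Ly6c2 (log2 fold change -4.37 ± 0.94, edgeR adjusted p = 0.0456) and Rag2 (-11.46 ± 2.5, edgeR adjusted p = 0.0453) fell. Ly6c2 and Rag2 each passed in 8 alternative fits, and with any aged+Ri library or young 1 or 2 left out neither did. Ly6c2 was also lost without young 3 and Rag2 without aged 2 or 3, with adjusted p-values up to 0.25 and 0.18 over the alternatives. Both calls were also lost without the filter and in the fit with young 1 as its single young library, Ly6c2 also with limma-voom and with the batch as a covariate, and Rag2 also with edgeR's newer method. Rag2 had at most 1 count in an aged+Ri library, so its fitted size depends on the prior count.

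Gata2, Gfi1b and Tal1 are also active in mast cells, megakaryocytes and red cell precursors. Mast cell and basophil markers summed to 190 to 287 CPM in aged+Ri, 371 to 527 CPM in aged and 276 to 683 CPM in young libraries. Of these sums Slc18a2 alone gave 183, 284 and 214 CPM in aged+Ri, 345, 383 and 252 CPM in aged and 580, 592 and 172 CPM in young libraries. Of the 7 tested, 5 were below 0 for aged+Ri against aged (median -4.65), against 52.8% of all genes (median -0.06). At an unadjusted p under 0.05, 2 were lower and 0 higher, against 4.89% and 4.24% of all genes. Fcer1a had 15.8, 5.1 and 39.8 CPM in aged libraries, at most 0.0282 CPM in aged+Ri and at most 0.142 CPM in young libraries. Its edgeR adjusted p was 0.0907 for aged+Ri against aged and 0.102 for aged against young. Cma1, Tpsb2, Tpsab1 and Prss34 did not pass the filter on low counts and were at 0 in all 3 aged+Ri libraries. Cma1 and Tpsab1 were also at 0 in all 3 aged libraries, Tpsb2 in aged 1 and 3 and Prss34 in aged 1. All of them had counts in every young library.

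Megakaryocyte markers summed to 2020 to 4110 CPM in aged+Ri, 2470 to 2940 CPM in aged and 1240 to 1790 CPM in young libraries. Cd9, a widely expressed tetraspanin on that list, made up much of these sums, with 1690, 2670 and 3500 CPM in aged+Ri, 1480, 1760 and 1780 CPM in aged and 790, 690 and 761 CPM in young libraries. Without Cd9 the sums were 329, 757 and 608 CPM in aged+Ri, 993, 1180 and 1000 CPM in aged and 657, 1100 and 476 CPM in young libraries, so that every aged+Ri sum lay below every aged one. For aged+Ri against aged, 10 of 14 tested megakaryocyte markers were below 0 (median -1.12), with 6 lower and 1 higher at an unadjusted p under 0.05 and 0 after edgeR's adjustment. Over all genes 52.8% were below 0 (median -0.06), with 4.89% lower and 4.24% higher at that unadjusted p. Gp9 and Treml1, of platelets, were at 0 in all 3 aged+Ri libraries, and Treml1 also in aged 1. Cd9 rose by 1.81 ± 0.28 in aged+Ri against young (edgeR adjusted p = 0.016), a call lost without aged+Ri 3 (edgeR adjusted p = 0.0879). For aged against young, 7 of the 14 were below 0 (median 0.17), against 54.7% of all genes (median -0.13). The part of megakaryocyte markers in the Gfi1b difference was not tested.

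Erythroid markers summed to 2070 to 3040 CPM in aged+Ri, 1890 to 2850 CPM in aged and 1280 to 2590 CPM in young libraries. For aged+Ri against aged, 6 of 13 tested were below 0 (median 0.71), against 52.8% of all genes (median -0.06). The globin gene Hba-a1 had 620, 428 and 900 CPM in aged+Ri against 28.2, 13.9 and 2.73 CPM in aged libraries (log2 fold change 5.44 ± 1.73, edgeR adjusted p = 0.434), and young libraries had 257, 18 and 2.31 CPM. Its near-identical copy Hba-a2, with which it can share reads, gave 5.24 ± 1.57 (edgeR adjusted p = 0.415). Car2, a carbonic anhydrase, had 914, 1450 and 1490 CPM in aged+Ri against 1780, 2230 and 2800 CPM in aged libraries (-0.82 ± 0.29, edgeR adjusted p = 0.434). The part of these genes in the values of the 10 factors was not tested. Car1, another carbonic anhydrase of red cells, was at 0 in all aged+Ri libraries, in aged 1 and 3 and in young 2. Stromal and endothelial markers summed to 118 to 344 CPM in aged+Ri, 444 to 762 CPM in aged and 300 to 338 CPM in young libraries. Apoe alone gave 85.5, 237 and 196 CPM of these sums in aged+Ri, 343, 342 and 598 CPM in aged and 193, 178 and 130 CPM in young libraries.

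The genes whose profile over the 9 libraries was closest to each factor were found by the mean absolute difference of log2 CPM deviations among 9749 genes of at least 5 CPM. For Tal1 they were Cbfa2t3 (0.19) and Zfpm1 (0.2), the nearest for Lyl1 was Treml2 (0.18), and Lmo2 had Dok1 (0.13) and Ttc7 (0.14). Gata2 had Naip5 (0.15) and Cdk19 (0.18), Runx1 had Casp2 (0.15), and Erg had Xpo7 (0.21) and Plcg1 (0.24). For the remaining genes they were Plxnc1 (0.12) and 3830406C13Rik (0.15) for Meis1, Cux1 (0.13) and Treml2 (0.15) for Hlf, Zfp715 (0.13) and Ppfia1 (0.15) for Mecom, and Flywch2 (0.22) and Hsd17b10 (0.23) for Gfi1b. Both genes named for Tal1 were on the list of partners and co-regulators. These are descriptions over 9 libraries that share depth and batch.

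**Figure D5:**
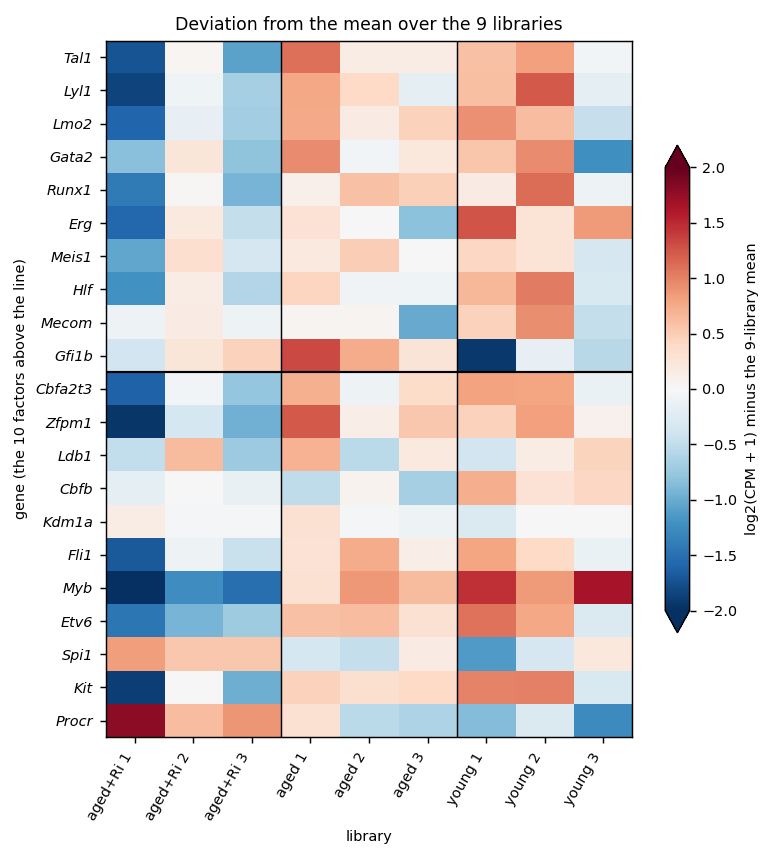
Deviation of log2(CPM + 1) from its mean over the 9 libraries (colour, with values past 2 at the end colours) for the 10 genes and 11 partners, relatives and targets, libraries in columns. Aged+Ri 1 is low for most rows, Kdm1a is near 0 throughout, Spi1 and Procr are high in aged+Ri libraries, and Gfi1b is low in young 1.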

How the data were processed

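The deposited table holds estimated counts by the authors for genes in 9 libraries: 71.6% to 80.9% of a library's values are whole within 0.005, and fractional values occur for several of the 10 genes, so some reads may be shared with other loci. Per the submitters' processing notes the tools were featureCounts, STAR 2.7.0, cutadapt 1.18, SAMtools 1.14 and R 4.2.0, with GRCm38. SMART-Seq v4 cDNA and Nextera XT library kits were used, per the labels' protocols. Use of strand is not given in the sources used here. In GENCODE M21, Lyl1 shares 4 exon bases with Nfix, and Mecom, Meis1 and Runx1 share exon bases with antisense transcripts.

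Counts were rounded, filtered (filterByExpr), TMM-scaled and fitted with edgeR 4.0.16 (glmQLFit, robust, R 4.3.3) with 1 mean per group over 9 libraries and 6 residual degrees of freedom, then tested by two-sided quasi-likelihood F-tests at an adjusted threshold of 0.05. The steps were tested on simulated data. Ratios used counts plus 1 and exact permutation tests. Promoters are RefSeq's for GRCm38.p6, found for 9 of the 10 genes. The genes and lists were chosen with earlier results of these data known. Named genes were the 10, set relatives and partners, listed genes past the threshold or among the 4 smallest p-values of their list, and 2 nearest profiles each. A few genes that this rule names are not reported here. Alternatives were DESeq2 1.42.0 and its size factors, limma-voom (limma 3.58.1), edgeR's newer method, other filters, 2-group fits, a replicate block, a batch covariate and each library left out. No pair of libraries was within sampling noise of another.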

Additional observations from a re-analysis of the deposited data

How the results depend on the processing

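The directions reported for aged+Ri against aged held in every alternative for 8 of the 10 genes. Mecom moved to -0.12 with the batch as a covariate, and ranged from -0.11 to 0.37 with libraries left out, and Erg ranged from -0.83 to 0. For aged+Ri against young all 10 directions held. For aged against young, 6 genes within 0.29 of 0 changed sign. Lmo2 was at -0.06 with DESeq2 or its size factors, -0.04 with limma-voom, -0.09 with the stricter filter, -0.02 with only the 2 groups compared, -0.37 with young 1 as the only young library (chosen after seeing the data), and between -0.28 and 0.22 with libraries left out. Tal1 was at -0.05, -0.05, -0.04, -0.07 and -0.01 in the first 5 of these, and between -0.33 and 0.3. Gata2 and Meis1 were both at -0.01 with the stricter filter and at -0.05 and -0.11 with young 1 alone, and ranged from -0.32 to 0.57 and from -0.09 to 0.25. Runx1 was at 0.07 with the batch, 0.31 with young 1 alone and -0.31 to 0.46 with libraries left out, and Lyl1 ranged from -0.57 to 0.19. The log2 ratio of Lyl1 to Tal1 ranged from 0 to 0.38 for aged+Ri against aged and from -0.24 to 0.1 for aged+Ri against young. The cause of these shifts was not tested.

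The number of the 10 genes past the adjusted threshold stayed at 0 except for 1 (Lmo2) without young 3 in aged+Ri against young, where the range over left-out libraries was 0 to 1, and 1 (Gfi1b) in each comparison with young 1 as the only young library. Genes called in all, for aged+Ri against aged, aged against young and aged+Ri against young, were 0, 5 and 219 in the main analysis, 321, 744 and 1829 with DESeq2, 55, 18 and 644 with limma-voom and 5, 21 and 463 with edgeR's newer method. They were 2, 1 and 57 with only the 2 groups compared, 11 and 20 without a filter in the first 2, and 16 with the batch in the first. With young 1 alone they were 358 and 735 in the last 2. Over left-out libraries they ranged from 0 to 6, 2 to 80 and 18 to 532, and listed genes called from 0 to 2 in aged+Ri against aged and from 2 to 12 in aged+Ri against young. Same-numbered libraries did not all correlate above 0.1 (-0.0691 to 0.151), so the numbers were not taken as pairs. With the replicate block 2 genes were called for aged+Ri against aged, 6 for aged against young and 226 for aged+Ri against young, and Runx1 for aged against young was at 0.01. Under the block Ikzf1, Bcl6 and Ly6c2 no longer passed for aged+Ri against young. With 3 libraries a group, differences smaller than the 95% intervals given could not be resolved.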
